A study of Mus musculus with 6 samples.

Results

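The genes described here are 10 members of the tumour necrosis factor (TNF) ligand and receptor families, found as 10 of the 55487 gene rows measured: the ligand genes Tnfsf10 (TRAIL) and Tnfsf12 (TWEAK) and the receptor genes Tnfrsf10b, Fas, Tnfrsf1a, Tnfrsf1b, Tnfrsf12a, Tnfrsf19, Tnfrsf21 and Ngfr. They were taken by symbol and were selected on the normalized reads of the same 6 libraries, compared between the 2 genotypes, so their differences between genotypes are given as a description. No p-value is given for any of them, and their calls in the fit across all genes are only counted. RNA was sequenced from cells sorted from the subventricular zone, the neurogenic niche beside the lateral ventricles of the adult mouse brain, with 3 libraries per genotype. The knockout libraries carried E2F1(-/-);E2F3(F/F) and the heterozygous libraries E2F1(+/-);E2F3(F/+), in which F stands, by the usual convention, for a floxed allele. Both groups carried the inducible NestinCreERT2 and R26;EYFP alleles on a C57BL/6;Sv/129;FVB/N background. Both received tamoxifen by gavage (200 mg/kg per day for 5 days, started at 6 to 10 weeks of age), and the subventricular zone was dissected 10 days after the gavage ended. Each library pooled several mice to give at least 200000 sorted YFP-positive cells. Recombination of floxed E2f3 and of the reporter depends on Cre driven by Nestin, which is active in neural stem cells, so the sort holds stem cells, their marked progeny and any other cells in which the reporter recombined. Both E2f genes differ between the groups, so their effects cannot be told apart. The series asks what activator E2F transcription factors do for the gene expression of quiescent and of activated neural stem cells.

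TNF family ligands act as trimers that bring receptors together on the cell surface. The receptors Tnfrsf10b, Fas, Tnfrsf1a, Tnfrsf21 and Ngfr have a cytoplasmic death domain. Of these, Tnfrsf10b, Fas and Tnfrsf1a can recruit the adaptors FADD or TRADD and, through caspase-8, start apoptosis. Receptors of the family can also signal through TRAF proteins to the transcription factor NF-kB. Tnfrsf1b, Tnfrsf12a and Tnfrsf19 have no death domain and signal mainly through TRAF proteins. In the adult brain several of these receptors are known from glia, endothelium and microglia as well as from neural stem and progenitor cells.

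Facts of the whole data set that bear on these genes are as follows. Libraries held 19798675 to 25982361 reads assigned to genes. E2f1 stood at 375, 483 and 516 normalized reads in the knockout libraries A, B and C, against 1152, 1388 and 1030 in heterozygous A, B and C. The ratio of means was 0.385, counted over the whole gene. The source of the E2f1 reads in knockout libraries was not tested. E2f3 stood at 324, 231 and 245 in knockout libraries, against 293, 205 and 253 in heterozygous libraries, counted over the whole gene, which does not check recombination. Cell type marker sums, in normalized reads, set the libraries apart. The 18 ependymal markers, all detected, summed to 110439, 67949 and 26352 in knockout A, B and C and to 21442, 18696 and 18343 in heterozygous A, B and C. The 16 endothelial markers, all detected, summed to 45477, 16401 and 5276 in knockout libraries and to 6913, 8089 and 8135 in heterozygous libraries. The 14 microglia and macrophage markers, all detected, summed to 16474, 4498 and 4586 in knockout libraries and to 3078, 5104 and 11249 in heterozygous libraries. The 14 neuroblast markers spanned 16952 to 22811 in knockout and 94451 to 153836 in heterozygous libraries, and the 17 markers of quiescent stem cells and astrocytes spanned 735065 to 1099083 in knockout and 524904 to 740849 in heterozygous libraries. The other lists, with all genes detected, were 10 mural markers (13166 to 34552 in knockout, 9021 to 19115 in heterozygous libraries), 14 oligodendrocyte lineage markers (109961 to 139132 in knockout, 67819.9 to 95509 in heterozygous libraries) and 11 fibroblast and choroid plexus markers (3034 to 5685 in knockout, 1765 to 48192 in heterozygous libraries). In a bulk sample a change in the number of cells of a type and a change in RNA per cell cannot be told apart.

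All 10 genes passed the filter of a mean of at least 10 normalized reads over the 6 libraries. Of the 10, 9 had a higher mean in knockout libraries, and Tnfrsf21 had a lower one. The same 9 had a positive log2 difference, as did 52.3% of all tested genes. The median log2 difference of the 10 was 0.84, against 0.05 for all 18227 genes tested. Every knockout library stood above every heterozygous library for Tnfsf10, Tnfrsf10b, Fas and Tnfrsf1a and below for Tnfrsf21, which makes 5 genes whose groups did not overlap, against 38.7% of all tested genes (18.5% with knockout libraries higher and 20.2% with them lower). At an adjusted p under 0.05 in limma, 3 of the 10 were higher in knockout libraries and 1 was lower. Of all tested genes 15.8% passed (7.23% higher and 8.59% lower in knockout libraries). These counts are not evidence, because the genes were chosen with the same contrast in view. They also changed with 1 library left out, as did the calls over all genes. Without knockout A 1 member passed (2230 of 17952 tested genes). Without knockout B it was 1 (697 of 18209), and without knockout C 2 (4019 of 18311). Without heterozygous A 1 passed (906 of 18217), without heterozygous B no member (635 of 18372) and without heterozygous C 2 (2336 of 18276). Knockout C held the highest value of 5 genes and knockout A that of 4. Of all tested genes 17.0% were highest in knockout C and 25.8% in knockout A.

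**Figure D1:**
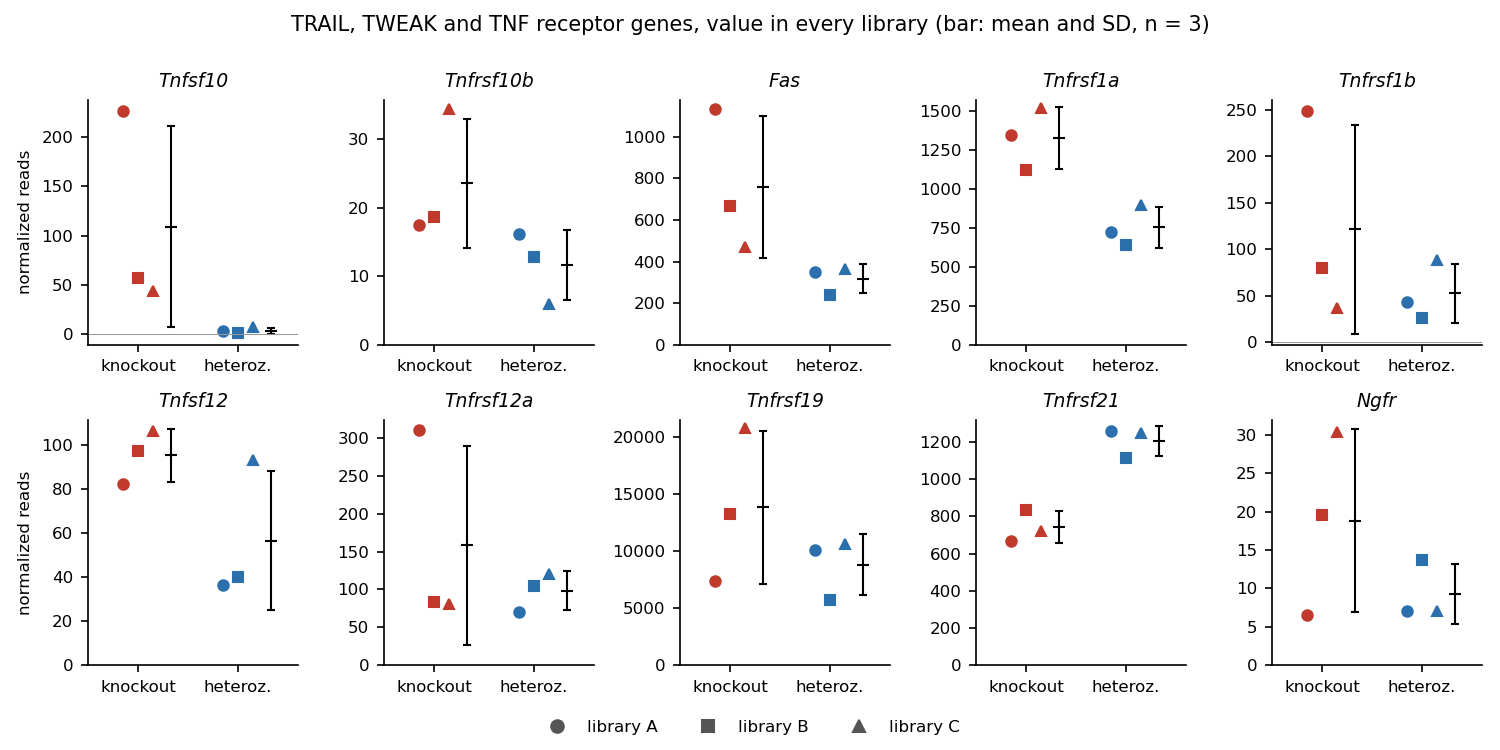
Normalized reads (y axis, linear from 0) of the 10 genes in each knockout (red, left) and heterozygous (blue, right) library, with the mean and SD of the 3 libraries as a black bar. Tnfsf10, Tnfrsf1b and Tnfrsf12a stand highest in knockout A (227, 249 and 310 normalized reads), while Tnfrsf19 and Ngfr stand highest in knockout C.

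Divided by the length of the annotated exons, the genes spanned a wide range. Tnfrsf19 had the most reads per kilobase, 2912 ± 1411 in knockout and 1852 ± 568 in heterozygous libraries (normalized reads per kilobase, SD, n = 3 each), above 97.5% of 18212 tested genes with a length. Its lowest library (1199) lay above the highest library of the next gene (587). Tnfrsf1a followed with 513 ± 77.3 in knockout and 291 ± 50.7 in heterozygous libraries, then Fas with 367 ± 166 and 154 ± 34.3, and Tnfrsf21 with 181 ± 21.1 and 294 ± 19.9, in the same order of groups. The ranges of Tnfrsf1a and Fas overlapped over the 6 libraries, as did those of Fas and Tnfrsf21, while the lowest library of Tnfrsf21 (162) lay just above the highest of Tnfrsf12a (161). Tnfrsf12a averaged 82.0 per kilobase in knockout and 51.0 in heterozygous libraries, and Tnfsf12 62.8 in knockout and 37.3 in heterozygous libraries, with overlapping ranges. Tnfrsf1b averaged 31.8 per kilobase in knockout and 13.7 in heterozygous libraries. The lowest levels per kilobase were those of Tnfsf10 (20.7 in knockout, 0.70 in heterozygous), Ngfr (5.47 in knockout, 2.69 in heterozygous) and Tnfrsf10b (4.32 in knockout, 2.13 in heterozygous), and each of these genes overlapped its neighbour in the order.

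The stretches before the annotated starts of 4 genes are shown: Tnfsf10, Fas and Tnfrsf21, whose groups did not overlap, and Tnfrsf1b, which alone held a match to a searched motif. The sequences are from the RefSeq table of 250-base windows before each start (GRCm38.p6), written 5′ to 3′ on the gene's strand, and cut where an annotated exon begins. Capitals mark a match to the interferon-stimulated response element searched on both strands as TTTC, any 2 bases and TTTC.
Tnfsf10, chr3:27316827-27317027, plus strand: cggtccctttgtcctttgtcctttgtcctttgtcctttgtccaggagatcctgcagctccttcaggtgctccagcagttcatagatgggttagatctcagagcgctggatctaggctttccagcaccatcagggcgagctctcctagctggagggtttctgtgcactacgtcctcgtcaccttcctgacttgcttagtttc
Fas, chr19:34290409-34290658, plus strand: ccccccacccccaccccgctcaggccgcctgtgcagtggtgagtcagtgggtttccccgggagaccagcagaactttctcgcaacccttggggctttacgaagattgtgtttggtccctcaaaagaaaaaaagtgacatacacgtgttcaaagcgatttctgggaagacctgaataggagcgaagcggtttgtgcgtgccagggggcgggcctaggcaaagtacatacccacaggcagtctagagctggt
Tnfrsf21, chr17:43016305-43016554, plus strand: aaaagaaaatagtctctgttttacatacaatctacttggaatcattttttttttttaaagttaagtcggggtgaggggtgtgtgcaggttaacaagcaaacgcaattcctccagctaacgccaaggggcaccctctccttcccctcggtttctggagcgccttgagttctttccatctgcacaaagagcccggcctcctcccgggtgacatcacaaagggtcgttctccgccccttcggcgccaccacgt
Tnfrsf1b, chr4:145246871-145247120, minus strand: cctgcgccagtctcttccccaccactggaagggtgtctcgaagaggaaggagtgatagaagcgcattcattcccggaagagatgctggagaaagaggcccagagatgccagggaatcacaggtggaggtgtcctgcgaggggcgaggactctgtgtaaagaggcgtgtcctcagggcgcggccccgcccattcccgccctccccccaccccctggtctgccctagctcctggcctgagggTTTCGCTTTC

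Of the 10 genes, 8 had an entry in the table, with 9 windows in all. The E2F motif, searched on both strands as TTTCCCGC, TTTCGCGC, TTTGCCGC and TTTGGCGC, was in 0 of the 9 windows and in 1.86% of 32851 windows of all genes. The NF-kB motif was in 0 of the 9 and in 7.25% of all windows, and TATAAA, on either strand, in 0 of the 9 and in 12.4% of all. The interferon element was in 1 of the 9, that of Tnfrsf1b at the last 10 bases before the start, and in 2.98% of all windows. A missing match says only that these letters are not in these windows, and no binding was measured. The windows shown held 6 CpG dinucleotides for Tnfsf10, 11 for Fas, 12 for Tnfrsf21 and 12 for Tnfrsf1b over the full 250 bases, against a median of 6 over all windows.

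Tnfsf10 encodes TRAIL, a ligand that starts apoptosis through death receptors, and lies on chromosome 3 (GRCm38, 27317028 to 27342427, plus strand). It stood at 227, 57.0 and 43.5 normalized reads in the knockout libraries A, B and C, against 3.03, 0.98 and 7.0 in heterozygous A, B and C. All 3 knockout libraries were high and all 3 heterozygous libraries were at 7 reads or fewer, with no overlap. These values came from 207, 64 and 43 reads in knockout libraries and from 3, 1 and 7 reads in heterozygous libraries. The log2 difference was 4.39 ± 0.83 (SE), and the ratio of reads scaled by library was 28.4 (95% exact interval 15.7 to 57.6, counting error only). Knockout A alone held most of the knockout reads, and without it the ratio was 13.9 (7.45 to 28.6). With so few heterozygous reads the gene passed the filter through the knockout libraries. The order of the knockout libraries, A above B above C, was also that of the ependymal, endothelial, mural, and fibroblast and choroid plexus sums. The sums of 13 T and NK cell markers had it too. They were 172, 124 and 79.9 in knockout A, B and C against 59.5, 75.4 and 22.0 in heterozygous A, B and C. These orders were compared in knockout libraries only. Over all libraries the fibroblast and choroid plexus sum was highest in heterozygous A (48192), where Tnfsf10 stood at 3.03. The T and NK cell sum was lowest in heterozygous C, where Tnfsf10 was highest of its group. Of those 13 markers 6 were at 0 in every library, among them Cd3e, Cd3d, Cd3g, Cd8a and Ncr1. The filter left 2 of the 13, both with a positive log2 difference: Lck, which did not pass (limma adjusted p = 0.195), and Cd2. Cd2, an adhesion molecule of T and NK cells, stood at 31.8, 24.9 and 7.08 normalized reads in the knockout libraries A, B and C and was at 0 in all 3 heterozygous libraries. Cd2 passed the filter only through the knockout libraries, so no p-value is given for it. The part of ependymal, endothelial, mural, fibroblast, choroid plexus, T and NK cells in the Tnfsf10 level was not tested. Over 14135 genes with a mean of at least 50, the profiles nearest to Tnfsf10 over the 6 libraries were those of Myof, Defb30 and Lama3 (root mean square differences of centred log2 values of 0.79, 0.90 and 0.96).

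Tnfrsf10b, the death receptor of TRAIL in mouse (chromosome 14, 69767472 to 69784411, plus strand), stood at 17.6, 18.7 and 34.4 normalized reads in the knockout libraries A, B and C, against 16.1, 12.7 and 6.00 in heterozygous A, B and C. The groups did not overlap, but knockout A and heterozygous A differed by less than 2 normalized reads. Its log2 difference was 0.99 ± 0.67 (SE), from 71 reads in all in knockout and 35 in heterozygous libraries. Its nearest profiles were those of Nlrx1, Arsg and 2700046A07Rik (0.20, 0.25 and 0.27).

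Fas, the receptor for Fas ligand (chromosome 19, 34290666 to 34327772, plus strand), stood at 1135, 665 and 471 normalized reads in the knockout libraries A, B and C, against 352, 237 and 366 in heterozygous A, B and C. The knockout libraries were all higher, with knockout C nearest to the heterozygous range. For Fas the log2 difference was 1.18 ± 0.34 (SE) and was 0.84 without knockout A and 1.47 without knockout C. Its nearest profiles were those of Ttll3, of Utrn, which encodes utrophin, and of Col4a2, a basement membrane collagen chain (0.07, 0.10 and 0.11), and all 3 had the same A, B, C order in knockout libraries. The endothelial, ependymal, mural, T and NK cell, and fibroblast and choroid plexus sums had that order too. Over all libraries the fibroblast and choroid plexus sum was highest in heterozygous A (48192), where Fas stood at 352. The T and NK cell sum was lowest in heterozygous C, where Fas was highest of its group. The part of these lists in the Fas level was not tested.

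TNF itself has a pair of receptors. Tnfrsf1a, the broadly expressed receptor with a death domain (chromosome 6, 125349362 to 125362484, plus strand), stood at 1344, 1121 and 1521 normalized reads in the knockout libraries A, B and C, against 724, 639 and 897 in heterozygous A, B and C. The groups did not overlap, and the spread within each group was small, 1.36-fold in knockout and 1.40-fold in heterozygous libraries from lowest to highest. Tnfrsf1a had a log2 difference of 0.82 ± 0.21 (SE), with a range of 0.71 to 0.95 when any 1 library was left out. Its nearest profiles were those of Slco1c1, a thyroid hormone transporter, Tcf7l1 and Slc30a4 (0.06, 0.07 and 0.08). The quiescent stem cell and astrocyte sum and the oligodendrocyte lineage sum were both highest in the same library, knockout C. The oligodendrocyte lineage sum also had the same order of knockout libraries, C (139132) above A (113396) above B (109961). The part of either list in the Tnfrsf1a level was not tested.

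Tnfrsf1b, the TNF receptor without a death domain, known in brain from microglia and endothelium (chromosome 4, 145213463 to 145246870, minus strand), stood at 249, 79.2 and 36.4 normalized reads in the knockout libraries A, B and C, against 43.4, 25.5 and 88.0 in heterozygous A, B and C. The groups overlapped: knockout C lay below heterozygous A and C. The log2 difference was 0.95 ± 0.72 (SE), and 0.22 without knockout A. Knockout A and heterozygous C were the libraries with the 2 highest values, and they also had the 2 highest microglia and macrophage sums, 16474 in knockout A and 11249 in heterozygous C. The part of microglia in the Tnfrsf1b level was not tested. Its nearest profiles were those of Il17rd, Cp, which encodes ceruloplasmin, and Hspb1, a small heat shock protein (0.21, 0.23 and 0.24).

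**Figure D2:**
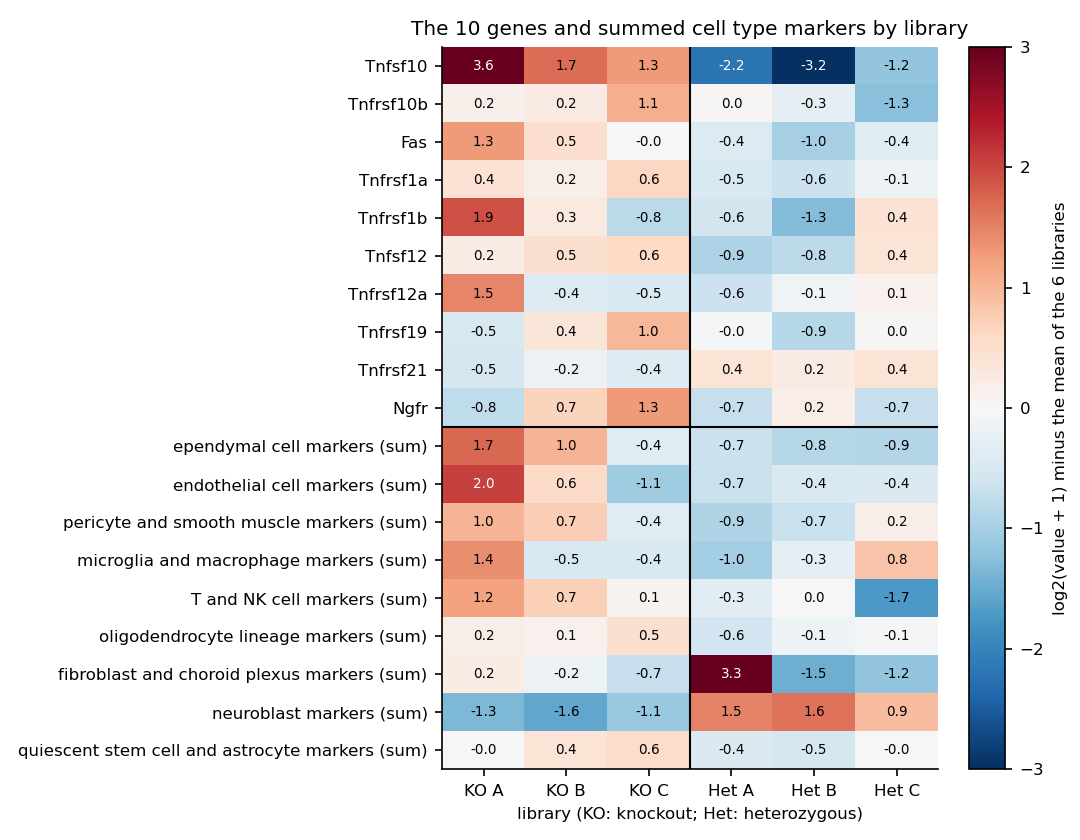
Each row shows log2(value + 1) minus the row's mean over the 6 libraries, for the 10 genes above the line and the summed markers of 9 cell types below it, with knockout libraries left of heterozygous libraries; colours are capped at -3 and 3. Tnfsf10, Fas, Tnfrsf1b and Tnfrsf12a share their maximum in knockout A with the ependymal, endothelial, mural, microglial and T and NK cell sums, whereas Tnfrsf19 and Ngfr peak in knockout C.

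TWEAK and its receptor had overlapping groups. Tnfsf12, which encodes the ligand TWEAK (chromosome 11, 69686250 to 69695849, minus strand), stood at 82.3, 97.1 and 106 normalized reads in the knockout libraries A, B and C, against 36.3, 40.2 and 93.0 in heterozygous A, B and C. Heterozygous C lay within the knockout range, and the other heterozygous libraries lay below it. Its log2 difference was 0.87 ± 0.46 (SE), and 1.29 without heterozygous C. Its values are uncertain, because 48.3% of its exon bases (731 bases) are also annotated to Tnfsfm13 on the same strand, and how reads in shared exons were assigned is not given in the sources used here. Its nearest profiles were those of Kank1, Baiap3 and Npas2, a circadian transcription factor (0.11, 0.12 and 0.13). Tnfrsf12a, the TWEAK receptor Fn14, known to be induced by injury and growth factors (chromosome 17, 23675445 to 23677468, minus strand), stood at 310, 83.7 and 81.0 normalized reads in the knockout libraries A, B and C, against 70.6, 104 and 121 in heterozygous A, B and C. Knockout A was far above the rest, and knockout B and C lay within the heterozygous range. The log2 difference of 0.41 ± 0.54 (SE) rested on that library and was -0.22 without knockout A. Its nearest profiles were those of 9930012K11Rik, Klhl6 and Ehd4 (0.16, 0.19 and 0.20).

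The remaining receptors are known from the neural lineage. Tnfrsf19, also called TROY, is an orphan receptor of stem and glial cells (chromosome 14, 60963875 to 61046490, minus strand). It stood at 7389.8, 13265 and 20729.7 normalized reads in the knockout libraries A, B and C, against 10069, 5680.2 and 10576 in heterozygous A, B and C. Knockout A lay within the heterozygous range, and knockout B and C lay above it. Its log2 difference was 0.58 ± 0.37 (SE), 0.97 without knockout A and 0.23 without knockout C. The quiescent stem cell and astrocyte sum had the same order of knockout libraries, C (1099083) above B (998328) above A (735065), and the part of this list in the Tnfrsf19 level was not tested. Its nearest profiles were those of Dkk3, a secreted Dickkopf family protein, Ehhadh, a peroxisomal enzyme of fatty acid oxidation, and Cyp4v3 (0.09, 0.09 and 0.10).

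Tnfrsf21, or death receptor 6 (chromosome 17, 43016555 to 43089189, plus strand), was the single member with a lower level in knockout libraries. It stood at 667, 837 and 721 normalized reads in the knockout libraries A, B and C, against 1258, 1113 and 1251 in heterozygous A, B and C. No library overlapped the other group, and the values within a group differed by at most 1.26-fold in knockout and 1.13-fold in heterozygous libraries. The log2 difference was -0.71 ± 0.19 (SE), and -0.80 to -0.63 with any 1 library left out. The neuroblast sum was also lower in every knockout library than in every heterozygous library (ratio of means 0.153), and its part in the Tnfrsf21 level was not tested. The nearest profiles were those of Zfp940, Usp1, a deubiquitinase of DNA repair, and Exoc5, an exocyst subunit (0.07, 0.09 and 0.09).

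Ngfr, the p75 neurotrophin receptor (chromosome 11, 95568818 to 95587735, minus strand), stood at 6.58, 19.6 and 30.4 normalized reads in the knockout libraries A, B and C, against 7.06, 13.7 and 7.0 in heterozygous A, B and C. Knockout B and C were above all heterozygous libraries and knockout A was below them. The log2 difference was 0.79 ± 0.77 (SE), from 58 reads in all in knockout and 28 in heterozygous libraries. Each library held 6 to 30 reads of the gene. Its nearest profiles were those of Gdf10, a BMP family ligand, St14 and Dio3os (0.24, 0.29 and 0.29).

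**Figure D3:**
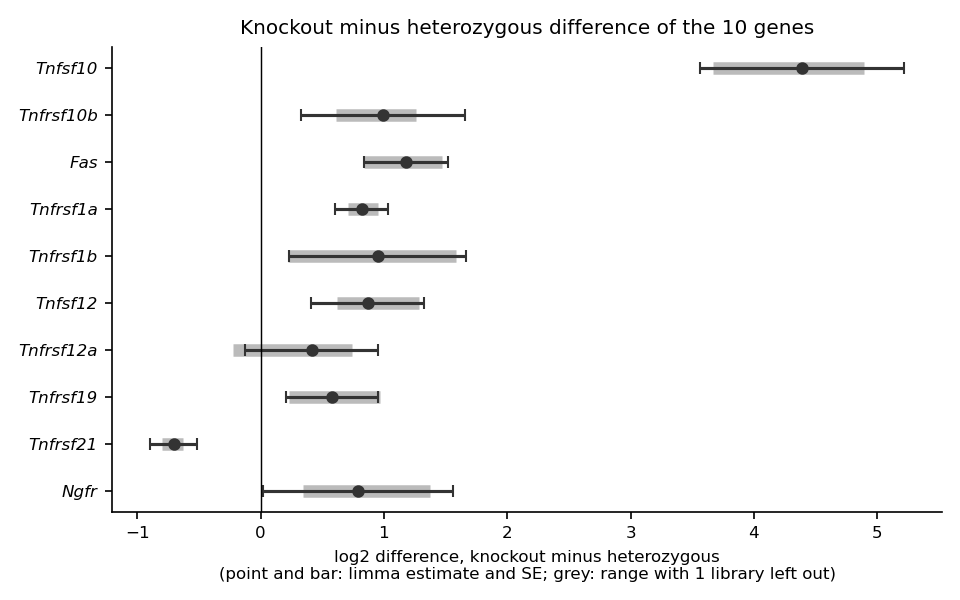
Log2 difference of knockout minus heterozygous libraries (x axis) for the 10 genes, as the limma estimate with its SE (point and bar) and the range of the estimate when any 1 of the 6 libraries was left out (grey band). The band of Tnfrsf12a crosses 0, from -0.22 to 0.74, and that of Tnfsf10 runs from 3.67 to 4.89.

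The other ligands and receptors of the family were read next, in the same limma fit across all 18227 genes. Of 16 other ligand genes 7 were tested and 1 rose, Eda, the ligand ectodysplasin. Eda stood at 365, 565 and 705 normalized reads in the knockout libraries A, B and C, against 217, 208 and 237 in heterozygous A, B and C (log2 difference 1.25 ± 0.29 SE, limma adjusted p = 0.0222). All 3 knockout libraries were above all heterozygous ones, and the call was lost without knockout B (adjusted p = 0.0998), heterozygous A (0.0746) or heterozygous B (0.0862). The 1 call of 7 is 14.3%, against 15.8% of all tested genes, and the median log2 difference of the 7 was 1.25, with 5 positive. Large SEs went with the differences of Tnf (2.04 ± 1.97) and Tnfsf8 (2.05 ± 1.64). Tnfsf9 was lower in every knockout library than in every heterozygous library, but did not pass (-1.08 ± 0.36, limma adjusted p = 0.0701). Tnfsf8 and Tnfsf9 were named after their values were seen. Tnf itself, chosen after its values were seen, stood at 491, 4.45 and 14.2 normalized reads in the knockout libraries A, B and C, against 3.03, 0 and 145 in heterozygous A, B and C. It was high in the same pair of libraries that led the microglia and macrophage sums, knockout A and heterozygous C, and its difference did not pass (limma adjusted p = 0.497).

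Of 20 other receptor genes 16 were tested and 1 rose, Tnfrsf23, which encodes a mouse decoy receptor for TRAIL that lacks a death domain. Tnfrsf23 stood at 84.5, 21.4 and 19.2 normalized reads in the knockout libraries A, B and C, against 1.01, 0 and 1.0 in heterozygous A, B and C (log2 difference 4.41 ± 0.91 SE, limma adjusted p = 0.0152). The groups did not overlap, and the knockout libraries had the same order as for Tnfsf10. With 120 reads in knockout and 2 in heterozygous libraries, the ratio of scaled reads was 59.8 (95% exact interval 16.2 to 499, counting error only), and 30.7 (7.99 to 261) without knockout A. The call was lost without knockout B (adjusted p = 0.0667) or heterozygous B (0.0597), and without knockout A the gene fell under the filter and was not tested. The list held 2 calls without knockout C (4019 of 18311 tested genes passed) and 2 without heterozygous C (2336 of 18276). The gene passed the filter through the knockout libraries, and it has a close relative in Tnfrsf22, so reads may be divided between the copies. Tnfrsf22 stood at 157, 236 and 230 normalized reads in the knockout libraries A, B and C, against 158, 120 and 83.0 in heterozygous A, B and C, and its difference did not pass (limma adjusted p = 0.145). The 1 call of 16 is 6.25%, against 15.8% of all tested genes, and the median log2 difference of the 16 receptors was 0.76.

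The genes downstream of the receptors were read in the same way. Of 23 genes of the death receptor complex, caspases and their regulators 22 were tested, 3 fell and 0 rose (median -0.16). These calls are 13.6% of the list, near the 15.8% of all tested genes that passed in either direction (8.59% lower). Apaf1, the scaffold of the apoptosome, stood at 139, 154 and 176 normalized reads in the knockout libraries A, B and C, against 568, 484 and 406 in heterozygous A, B and C (log2 difference -1.62 ± 0.26 SE, limma adjusted p = 0.00566). All 3 knockout libraries were below all heterozygous ones, and Apaf1 passed in each of 14 alternative analyses. Dapk1, death-associated protein kinase, stood at 813, 908 and 1037 in knockout libraries, against 1990.5, 1725 and 1287 in heterozygous libraries (-0.84 ± 0.22, limma adjusted p = 0.0322), and lost its call without knockout A, knockout B, heterozygous A or heterozygous B (adjusted p of 0.0664 to 0.122). The genes of the initiating complex did not pass: Fadd had a log2 difference of 0.29 ± 0.36, Casp8 of -0.16 ± 0.63, and Cflar, the caspase-8 inhibitor c-FLIP, of 0.41 ± 0.21. These 3 were named after their values were seen. The neuroblast sums, lower in all knockout libraries, moved with the genes that fell, and their part was not tested.

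**Figure D4:**
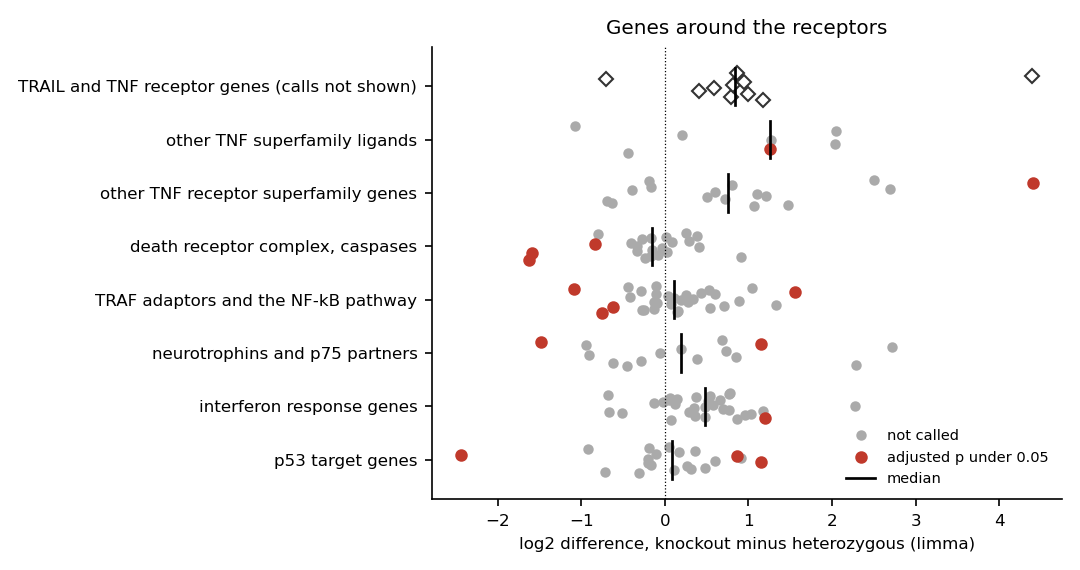
Log2 difference of knockout minus heterozygous libraries (x axis) for every tested gene of each list; red points passed limma at an adjusted p under 0.05, grey points did not, open diamonds are the 10 genes, drawn without their calls, and black bars are medians. The calls among death receptor complex genes are all below 0, while Tnfrsf23 stands at 4.41 among the other receptors.

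Of 31 TRAF adaptor and NF-kB pathway genes, all tested, 1 rose and 3 fell (median 0.11), which is 12.9% of the list against 15.8% of all tested genes. Traf1, an adaptor that binds the TNF receptor without a death domain, stood at 1185, 1041 and 517 normalized reads in the knockout libraries A, B and C, against 415, 235 and 253 in heterozygous A, B and C (log2 difference 1.56 ± 0.36 SE, limma adjusted p = 0.0210). It had the knockout order A, B, C of the ependymal, endothelial, mural, T and NK cell, and fibroblast and choroid plexus sums. Over all libraries the fibroblast and choroid plexus sum was highest in heterozygous A (48192), where Traf1 stood at 415. The part of these lists was not tested. Traf4 stood at 845, 855 and 1219 in knockout libraries, against 1806, 2331 and 2040.0 in heterozygous libraries (-1.09 ± 0.21, limma adjusted p = 0.0123). Birc2, the ubiquitin ligase cIAP1, had a log2 difference of -0.76 ± 0.18 (limma adjusted p = 0.0245), and Map3k7, the kinase TAK1, of -0.62 ± 0.18 (limma adjusted p = 0.0489). No gene of the list passed without knockout B or heterozygous B, where the smallest limma adjusted p among these 4 was 0.0707 and 0.0627. Over all tested genes 697 of 18209 passed without knockout B and 635 of 18372 without heterozygous B. In the list 2 passed without heterozygous A (906 of 18217 tested genes) and 2 without heterozygous C (2336 of 18276). Map3k7 lost its call without any 1 of the 6 libraries, and Birc2 also without heterozygous A (0.0869), while Traf1 had an adjusted p = 0.0530 without heterozygous C.

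Of 19 neurotrophins and partners of p75, 15 were tested, 1 rose and 1 fell (median 0.19), which is 13.3% of the list against 15.8% of all tested genes. Both are sortilin-related receptors: Sorcs2 stood at 1313, 1859 and 2777 normalized reads in the knockout libraries A, B and C, against 932, 671 and 994 in heterozygous A, B and C (log2 difference 1.15 ± 0.29 SE, limma adjusted p = 0.0284). Sorcs3 stood at 37.3, 54.3 and 60.7 in knockout libraries, against 143, 111 and 177 in heterozygous libraries (-1.49 ± 0.39, limma adjusted p = 0.0335). Neither passed without knockout B, heterozygous A or heterozygous B (adjusted p of 0.0747 to 0.121), nor did Sorcs3 without knockout A (0.0643) or heterozygous C (0.0942). Without knockout C 6 genes of the list passed, where 4019 of 18311 tested genes did.

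Interferon and p53 signalling are known inputs to TRAIL and its receptors. Of 30 interferon response genes, all tested, 1 rose, Gbp2, a guanylate-binding protein (median 0.48), which is 3.33% of the list against 15.8% of all tested genes. It stood at 1532, 1253 and 809.5 normalized reads in the knockout libraries A, B and C, against 483, 488 and 539 in heterozygous A, B and C (log2 difference 1.20 ± 0.26 SE, limma adjusted p = 0.0169). Its knockout libraries had the order A, B, C of the ependymal, endothelial, mural, T and NK cell, and fibroblast and choroid plexus sums. Over all libraries the fibroblast and choroid plexus sum was highest in heterozygous A (48192), where Gbp2 stood at 483. The T and NK cell sum was lowest in heterozygous C, where Gbp2 was highest of its group. The part of these lists was not tested. It lost its call without knockout B (limma adjusted p = 0.0831), heterozygous A (0.0657) or heterozygous B (0.0749). Without knockout C 3 genes of the list passed, against 4019 of 18311 tested genes. Of 20 p53 target genes, all tested, 2 rose and 1 fell (median 0.08), which is 15% of the list against 15.8% of all tested genes. Fas and Tnfrsf10b, which are also known p53 targets, were not on this list. Perp rose by a log2 difference of 1.15 ± 0.31 (limma adjusted p = 0.0352) and Polk by 0.86 ± 0.23 (limma adjusted p = 0.0366), while Psrc1, a mitotic spindle gene, had a log2 difference of -2.45 ± 0.29 (limma adjusted p = 0.00154). Without knockout B, heterozygous A or heterozygous B Psrc1 was the 1 gene of this list that passed. In those settings 697 of 18209, 906 of 18217 and 635 of 18372 tested genes passed. Polk was also lost without knockout A (limma adjusted p = 0.0868) or heterozygous C (0.0871).

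**Figure D5:**
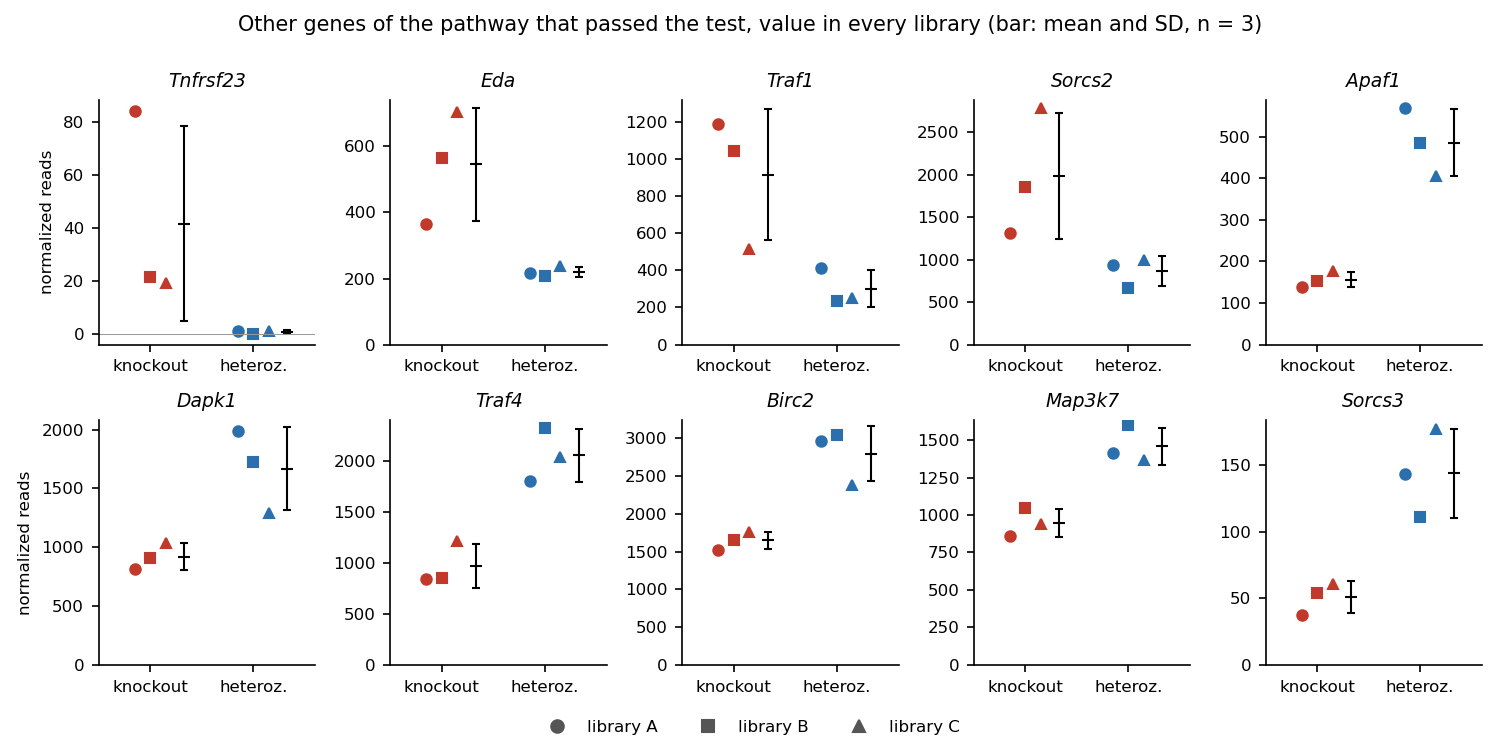
Normalized reads (y axis, linear from 0) of 10 other pathway genes that passed limma, in each knockout (red, left) and heterozygous (blue, right) library, with the mean and SD of the 3 libraries as a black bar. The 3 libraries of each genotype are separated for Tnfrsf23, Eda, Traf1 and Sorcs2, higher in knockout libraries, and for Apaf1, Dapk1, Traf4, Birc2, Map3k7 and Sorcs3, lower in knockout libraries.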

How the data were processed

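HISAT2, Subread's featureCounts and DESeq2 were used, with the GRCm38 build, per the submitters' processing notes. Library preparation used at least 35 ng of RNA, SMART-Seq v4 and Nextera XT, per the labels' protocols. The deposited value per library is a normalized signal: the authors divided each read count by 1 size factor per library. The authors' mean over libraries is a signal too, their fold change and its SE are on a log2 scale, their Wald statistic and weight are scores, and their p-value and adjusted p-value come with these weights, per the file headers. Of the 10 genes, 4 had an adjusted p under 0.05 in the authors' deposited table. Dividing by the value of 1 read in each library gave whole numbers, to within 0.001, for 100% of values above 0. In heterozygous A and C the value of 1 read (1.01 and 1.00) is so near 1 that whole numbers there are a weaker check. These recovered reads were used for counting intervals and count tests.

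limma 3.58.1 (R 4.3.3) with a mean-variance trend was fitted on log2(value + 1) to 18227 rows with a mean of at least 10, two-sided, with Benjamini-Hochberg adjustment at 0.05 over all of them. Log2 differences are on that scale and understate changes of low genes. edgeR 4.0.16 (quasi-likelihood, 2921 genes called) and DESeq2 1.42.0 (4364 called) on recovered reads were alternatives, against 2883 genes called with limma. The fit was tested on simulated data. Libraries are pools of mice, so p-values measure the spread between pools. Positions and exon lengths are from GENCODE M21, promoters from RefSeq GRCm38.p6. The 10 genes and all lists were chosen with earlier results of these data known. Named genes were the 10, up to 4 called genes of each list by smallest p (otherwise the 1 with the smallest p), the 3 nearest profiles (genes of mean at least 50) of each of the 10, and E2f1 and E2f3; 1 called gene of a list is not reported here. Intervals cover counting error only.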

Additional observations from a re-analysis of the deposited data

How the results depend on the processing

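With 18227 genes tested, 2883 passed, and 4364 did with DESeq2, 2310 with a replicate block and 635 to 4019 with 1 library left out (635 without heterozygous B, 697 without knockout B, 906 without heterozygous A). Of the 10 genes 4 passed, 2 without a filter, 2 with a replicate block and 0 to 2 with 1 library left out. Other ligands had 1 call, 2 with DESeq2 and 0 to 1 with 1 library left out. Other receptors had 1, 0 at a mean of at least 50, where Tnfrsf23 was not tested, and 0 to 2 with 1 library left out. The TRAF and NF-kB list had 4, 2 with a replicate block and 0 to 4 with 1 library left out. The p75 list had 2, 8 with DESeq2, 1 without a filter, 1 with a replicate block and 0 to 6 with 1 library left out. The interferon list had 1, 2 with DESeq2 and 0 to 3 with 1 library left out, and the p53 list 3 and 1 to 4. The death receptor list stayed at 2 to 4. Leaving out a library tests fewer samples. For the other settings the cause was not tested.

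No log2 difference of a called pathway gene named here changed sign under the 14 alternatives (12 for Tnfrsf23, which was not tested without knockout A or at a mean of at least 50); that of Tnfrsf12a, not called, turned to -0.22 without knockout A. The main fit did not pair the libraries by the shared letters A, B and C. Deviations from the group means correlated at -0.07, 0.02 and -0.10 for A, B and C. Between unlike letters they reached 0.16 (knockout A with heterozygous C). These correlations cannot decide whether libraries with the same letter were handled together. Depth limits Ngfr, Tnfrsf10b and the heterozygous values of Tnfsf10 and Tnfrsf23.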
